A study of Mus musculus with 24 samples.

Results

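The cytoplasmic ribosomal protein genes were followed in mouse otocyst epithelium in which signalling through the FGF receptor FGFR2b had been blocked. They were taken by mouse symbol: Rpl or Rps followed by a number with an optional letter, plus Rplp0, Rplp1, Rplp2 and Rpsa, leaving out the S6 kinases and rows named as pseudogenes. Of the 15736 genes in the count table, 75 fitted, 44 of the large (60S) and 31 of the small (40S) subunit. Annotated protein-coding genes of the same naming that had no row (Rpl10l, Rpl24, Rpl29, Rpl39l, Rpl3l and Rps27) were not analysed here, and Rps3a1 and Rack1, also parts of the small subunit, fall outside the naming rule.

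The otocyst is the epithelial vesicle that forms the inner ear. In each pregnant female, otocyst epithelia were pooled into a control sample (con, Rosa26rtTA/+) and an experimental sample (R2b, Rosa26rtTA/+;Tg(tetO-s(dn)Fgfr2b)/+), whose doxycycline-driven transgene encodes a secreted, dominant-negative FGFR2b that traps ligands. Embryos of both genotypes carried the rtTA activator and received doxycycline, as a 1.5 mg/kg injection of the mother and then chow with 200 mg/kg, so the comparison is of the transgene and not of the drug. Exposures began at E9.75 for 12 h (E9.75+12h, 3 litters used), at E9.25 for 24 h (E9.25+24h, 4 litters) or at E10.25 for 24 h (E10.25+24h, 4 litters); embryos were taken at E10.25 after either of the earlier starts and at E11.25 after the latest. Replicates are separate litters, each sample is a pool of embryos, and rtTA was expressed from the broadly active Rosa26 locus, so the block was not limited to the ear.

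Each ribosome carries a single copy of nearly every ribosomal protein, and growing cells make these proteins in step with ribosomal RNA. Their mRNAs form the best known group of TOP mRNAs, which begin with a run of pyrimidines (C or T in the DNA) and whose translation follows nutrient and growth-factor signals through mTORC1. Their transcription, and more so that of the nucleolar factors that assemble ribosomes, is also raised by MYC proteins, and FGF signalling is a known input to both routes.

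Start-site sequences are shown because runs of C and T near the annotated start were more frequent in the members' windows than in those of all genes. The 6 range from a long run to a short one. RefSeq windows (GRCm38.p6) of 55 bases, 25 before and 30 from the annotated start on, were matched for 55 of the 75 members. A member's window was the one nearest its gene's annotated 5′ end, while for all genes the first one listed was taken. Its start lay 575 bases from that end in Rps25, 405 in Rpl15, 45 in Rps6, 16 in Rpl22, 12 in Rpl4 and 0 in Rpl13. The largest distance was 3553 bases, in Rps24. In the lines that follow, capitals mark the longest unbroken run of C and T on the gene's own strand, and the one nearest the 5′ end where runs tie, as in Rpl22. The windows are chr9:44407689-44407743 (+) for Rps25, chr8:123102325-123102379 (+) for Rpl13, chr14:18270957-18271011 (-) for Rpl15, chr9:64173362-64173416 (+) for Rpl4, chr4:86857338-86857392 (-) for Rps6 and chr4:152325701-152325755 (+) for Rpl22.
Rps25: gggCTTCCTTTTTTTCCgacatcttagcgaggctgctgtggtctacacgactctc
Rpl13: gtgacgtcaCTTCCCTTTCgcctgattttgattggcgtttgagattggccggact
Rpl15: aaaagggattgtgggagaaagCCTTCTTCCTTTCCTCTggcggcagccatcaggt
Rpl4: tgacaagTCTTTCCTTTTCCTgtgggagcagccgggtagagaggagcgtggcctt
Rps6: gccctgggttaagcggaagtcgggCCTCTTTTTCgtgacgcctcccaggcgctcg
Rpl22: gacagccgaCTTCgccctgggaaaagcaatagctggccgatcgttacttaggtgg
The run was 14 bases long in Rps25, 10 in Rpl13, 17 in Rpl15, 14 in Rpl4, 10 in Rps6 and 4 in Rpl22. A run of at least 8 stood in 29 of the 55 windows (52.7%), against 20.7% of the windows of 27025 genes, and one of at least 10 stood in 36.4% against 9.65%. On the opposite strand, the windows with a run of at least 8 were 9.09% of the members' and 23.2% of all. The run covered the annotated start in 14 members. The share of all genes for this is not given, so no excess can be read from that count. Of the 6 shown, the run covered the start in Rpl15 and Rps6. It lay wholly before the start in Rps25, Rpl13, Rpl4 and Rpl22. These are counts of letters around annotated starts, and mRNA starts were not measured here.

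Libraries held 18.7 to 28.2 M counts. The transgene checks the labels: reads over Ighg1, whose constant region is fused to the decoy receptor, were near absent from con at E9.75+12h (19 to 36 counts) and abundant in R2b (19414 to 76096). The 24 h exposure from E9.25 gave 1 to 5 against 26082 to 42515. In the latest exposure the labels and these reads disagreed. The litter 1 library labelled con held 15754 such counts and the one labelled R2b 1504, and the litter 3 library labelled con held 5106, so libraries of that exposure are named by their labels. All 16 otic epithelium markers were detected in every exposure. Their summed level in CPM (counts scaled to a common library total) was 4511 to 4690 in con and 5045 to 6172 in R2b in the 12 h exposure. After 24 h from E9.25 it was 2742 to 4247 in con and 3843 to 5854 in R2b, higher in R2b in all 4 litters. Hindbrain neural tube markers, of which 5 of 13 had a row, summed to 10.9 to 16.04 CPM in con and 18.2 to 22.2 CPM in R2b in the 12 h exposure. After 24 h from E9.25 they gave 7.58 to 33.0 CPM in con and 16.8 to 38.1 CPM in R2b. This sum was again higher in R2b in every litter, but single markers of both lists went either way. At E9.75+12h, 5 of 16 otic and 2 of 5 hindbrain markers had a log2 fold change below 0 (48.6% of all genes). At E9.25+24h, 6 of 16 otic markers and 2 of the 4 hindbrain markers tested did (51.7% of all genes). Blood markers ranged from 21 to 774 CPM in con and from 97.1 to 123 CPM in R2b at E9.75+12h. The part of any of these in the results was not tested. In bulk pools, fewer cells of a type and less RNA per cell cannot be told apart.

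The 75 genes together took about 1% of the counts of a library. At E9.75+12h their share was 0.966%, 1.02% and 0.988% in con litters 1 to 3 and 0.918%, 0.950% and 0.870% in R2b. Every R2b pool lay below every con pool, and the mean of R2b relative to that of con was -8.02%. At E9.25+24h the shares were 1.14%, 1.13%, 1.27% and 1.20% in con and 1.08%, 1.10%, 1.14% and 1.09% in R2b. R2b was below con in all 4 litters, at -2.53% to -10.6% relative to it, while the groups overlapped through the R2b pool of litter 3. At E10.25+24h the libraries labelled con had 0.835%, 1.09%, 0.956% and 0.978%, and those labelled R2b 0.992%, 0.932%, 0.945% and 0.801%. Litter 1 ran opposite to litters 2 and 4, in the litter whose transgene reads also ran opposite to the labels: in each of litters 1, 2 and 4, the library with more transgene reads had the smaller share.

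**Figure D1:**
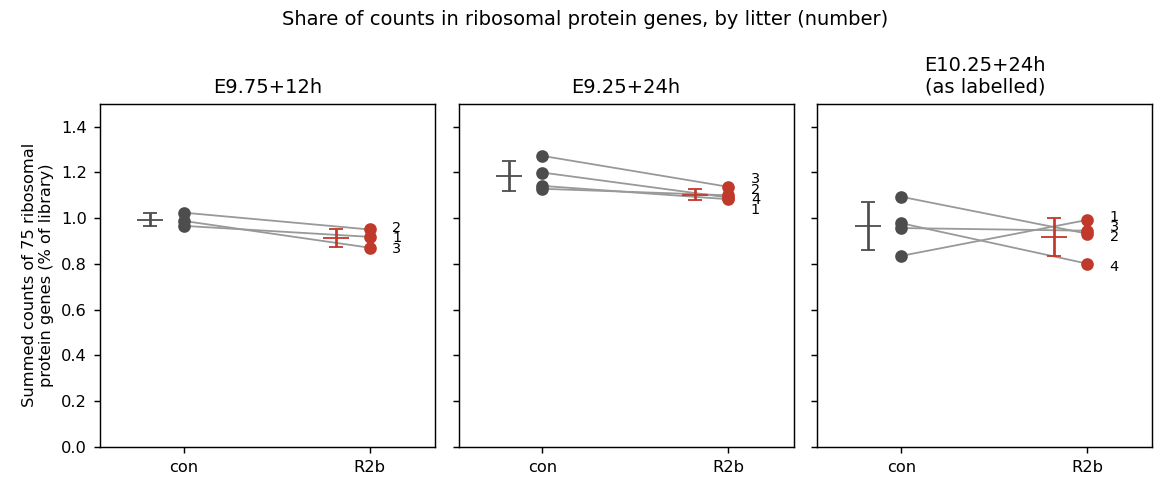
Summed counts of the 75 ribosomal protein genes as a percentage of each library (vertical axis, from 0), with con and R2b pools joined by litter in each exposure and mean ± SD beside them. R2b lies below con in all 3 litters of E9.75+12h and all 4 of E9.25+24h, at -2.53% to -11.9% relative to con, and litter 1 of E10.25+24h rises from 0.835% to 0.992%.

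The 75 genes did not have equal counts, although their proteins are made in near-equal numbers. Per kilobase of transcript, mean levels ran from 0.697 CPM per kb for Rps16 to 1058 CPM per kb for Rplp1, 1518-fold apart. Next to Rplp1 (an acidic stalk protein that recruits elongation factors) came Rpl4 at 847 and Rpl8 at 822 CPM per kb. The lowest besides Rps16 were Rps13 at 1.0 and Rps29 at 1.40 CPM per kb. Rps6, the S6 kinase substrate, was at only 1.99 CPM per kb.

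Ribosomal protein genes have many processed pseudogenes, so each transcript was cut into all its 50-base stretches and the share that also occurs in the transcript of another annotated gene was computed. The share reached 95.1% in Rpl35, and 74 of 75 members shared at least 1 stretch with a pseudogene. Level per kb and shared percentage both rest on 1 annotated transcript per gene, from 383 bases in Rpl36 to 5179 in Rps15a. Both depend on that choice: Rpl21, at 1856 bases, had 26.2% shared although its stretches matched 82 other genes. Median level was 98.1 CPM per kb in the 38 members with under 50% of their stretches shared and 22.4 CPM per kb in the 37 with 50% or more. Of 20 members averaging under 10 CPM, 16 were at 50% or more, against 4 of 23 averaging over 100 CPM. Across the 75 genes, which are not independent and whose counts come from the same libraries, Spearman's rho between level per kb and shared percentage was -0.51 and Pearson's r with the log2 level was -0.50. How reads matching several genes were counted is not given in the sources used here, so the level of a shared gene is uncertain.

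**Figure D2:**
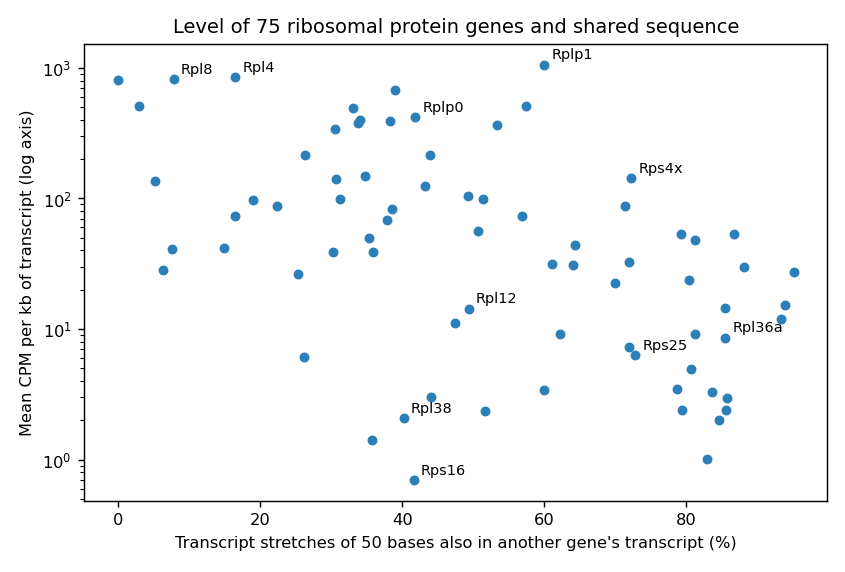
Mean level over all libraries in CPM per kb of transcript (vertical log axis) against the percentage of a gene's 50-base stretches that occur in another gene's transcript (horizontal axis), one point per gene. The genes with the highest levels include Rpl4 at 16.5%, with Rplp1 at 60% an exception, and most genes under 10 CPM per kb lie to the right of 50%.

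After 12 h of FGFR2b block from E9.75, ribosomal protein mRNAs were slightly lower as a group. A few passed the test, at a share not far from that of all genes. Of 72 members that passed the filter on low counts (Rpl38, Rps13 and Rps29 did not), 65 had a log2 fold change of R2b over con below 0 (90.3%; 48.6% of all genes), with a median of -0.27 against 0.01 for all 14882 genes. At an adjusted p (FDR) under 0.05 by edgeR's quasi-likelihood test, 10 of 72 fell (13.9%, against 9.78% of all genes). None rose by edgeR or DESeq2, and 2 had an unadjusted p under 0.05 in that direction (18.2% of all genes did). Every R2b pool was below every con pool in 21 of 72 (29.2%, against 19% of all genes). Taken by litter number, medians of the differences of log2 CPM were -0.31, -0.20 and -0.35. Same-numbered pools of this exposure did not deviate together over genes (r from -0.12 to -0.26), so this pairing rests on the labels alone. Members with under 50% of their sequence shared had a median of -0.17 and 5 calls in 36, and the others a median of -0.47 and 5 calls in 36.

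The small-subunit protein Rps25, known for its part in cap-independent initiation, had the lowest fold change of the called members that rested on more than a few reads. It stood at 14.5, 10.6 and 13.5 CPM in con litters 1 to 3 and at 3.99, 6.65 and 3.40 CPM in R2b. All 3 R2b pools were below all con pools, with a log2 fold change of -1.45 ± 0.25 (SE, n = 3 per group, edgeR FDR = 0.0031). Rps24, mutated in some families with Diamond-Blackfan anaemia, fell by 0.60 on the log2 scale (FDR = 0.046), from 276 ± 52.8 to 182 ± 54.6 CPM (mean ± SD), and its groups overlapped. Rps16 fell by 2.01 ± 0.50 (FDR = 0.018), but rested on 11 to 14 reads per con library and 3 to 5 per R2b library.

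On the large subunit, 7 genes fell. Rpl12, which sits at the base of the stalk where elongation factors dock, was at 16.5, 14.8 and 13.6 CPM in con and 8.58, 7.67 and 9.90 CPM in R2b. Each R2b value was under each con value, and the log2 fold change was -0.79 ± 0.16 (FDR = 0.0074). Rpl13 was at 17.7, 22.4 and 14.2 CPM in con against 8.24, 11.6 and 9.74 CPM in R2b, without overlap, a log2 fold change of -0.87 ± 0.20 (FDR = 0.011).

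Rpl5 and Rpl11 carry the 5S ribosomal RNA and, when free, bind the p53 regulator Mdm2. Rpl5 had 29.7, 41.2 and 24.6 CPM in con and 18.2, 23.3 and 16.5 CPM in R2b, again without overlap, and fell by 0.71 ± 0.19 on the log2 scale (FDR = 0.026). Its partner Rpl11 did not pass, at -0.45 ± 0.28 (FDR = 0.28). Rpl10, a late-joining protein needed before the subunits can pair, fell by 0.82 (FDR = 0.023), Rpl21 by 0.67 (FDR = 0.018), Rpl35 by 0.56 (FDR = 0.043) and Rpl15 by 0.43 (FDR = 0.021). All 4 had non-overlapping groups.

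Rpl4 and the stalk proteins, all abundant members, were not called. Rpl4 was at 1697, 1726 and 1731 CPM in con and 1312, 1614 and 1229 CPM in R2b, lower in each R2b pool but at -0.31 ± 0.12 with FDR = 0.079. The stalk proteins gave -0.24 ± 0.11 for Rplp1 (FDR = 0.14), -0.24 ± 0.14 for Rplp2 (FDR = 0.27) and 0.14 ± 0.10 for Rplp0 (FDR = 0.36), so none of the 3 passed.

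The count of calls at this exposure rests on few libraries. A block for the litter left 5 (Rps25, Rpl12, Rpl13, Rpl5 and Rps24; 6.94%, against 6.13% of all genes), and one fit over every library gave 22 of 75 (21 lower, 1 higher; 29.1% of all genes called either way). Dropping both pools of litter 1 gave 0 (2.92% of all genes) and dropping those of litter 2 gave 19 (27.1%). Dropping the con pool of litter 1 gave 4 (10.8% of all genes) and that of litter 2 gave 2 (10.21%). Dropping the R2b pool of litter 1 gave 3 (8.37%) and that of litter 2 gave 27 (25 lower, 2 higher; 30.5%). The calls over all genes rose and fell across these settings too. The median of the members stayed below 0 in each of these.

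**Figure D3:**
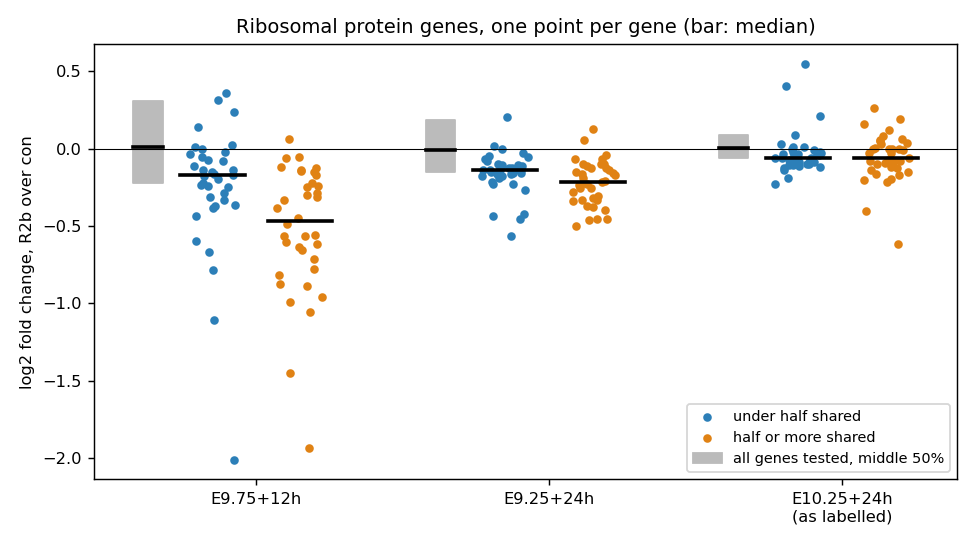
Log2 fold change of R2b over con for each ribosomal protein gene that passed the filter (points; bars are medians), split at 50% of the transcript's 50-base stretches occurring in another gene, beside the middle 50% and median of all genes tested (grey). From left to right the medians are -0.17 and -0.47 after 12 h, -0.14 and -0.22 after 24 h from E9.25, and both -0.06 in the latest exposure as labelled.

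After 24 h of block ending at the same stage, most members were again slightly lower in R2b. At E9.25+24h, 71 of 75 members had a log2 fold change below 0 (94.7%, against 51.7% of all genes) with a median of -0.16, where all 14979 genes had -0.01. Without a litter term 3 fell (4%, against 6.5% of all genes) and none rose, with 1 higher at an unadjusted p under 0.05 (16.7% of all genes), and DESeq2 called 9 lower and 1 higher (21.8% of all genes either way). With the litter as a block, 33 fell (44%, against 20.1% of all genes) and 1 rose (1.33%, against 20.5%). Litter medians were -0.12, -0.13, -0.20 and -0.18.

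The 3 members called without the block were Rpsa, Rpl22 and Rpl4. Rpsa, the small-subunit protein also known as the laminin receptor precursor, was at 9.05, 10.23, 9.34 and 10.23 CPM in con litters 1 to 4 and 7.68, 6.63, 6.85 and 7.53 CPM in R2b. The groups did not overlap, and it fell by 0.44 ± 0.10 on the log2 scale (n = 4 per group, edgeR FDR = 0.025; 0.0066 with the block).

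Rpl22, an RNA-binding protein of the large subunit, had 342, 355, 343 and 321 CPM in con and 305, 307, 309 and 298 CPM in R2b. It fell by 0.16 ± 0.04 (FDR = 0.034), a 10.4% lower level with no overlap. Rpl4 had 1365, 1323, 1502 and 1441 CPM in con and 1216, 1186, 1268 and 1255 CPM in R2b, a fall of 0.19 ± 0.05 (FDR = 0.035), also with no overlap. All 3 calls were lost on dropping litter 1, 2 or 3, on dropping just its R2b pool, and in one fit over every library, where 2.15% to 13.3% of all genes were called. Dropping con litter 3 left 1 call (9.19% of all genes), and library totals alone gave 5 (4 lower, 1 higher; 15.8%).

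With the block, the members that fell at E9.25+24h came from both subunits, 23 of 44 large and 10 of 31 small. They included Rplp0 (FDR = 0.044) and Rplp1 (FDR = 0.0040) of the stalk, Rpl5 (FDR = 0.0035), Rps19 (FDR = 0.014), whose loss causes Diamond-Blackfan anaemia, and Rps27a (FDR = 0.028), made as a fusion with ubiquitin. Rplp2 (FDR = 0.21), Rpl11 (FDR = 0.18), Rps6 (FDR = 0.62), Rps24 (FDR = 0.97) and Rpl38 (FDR = 0.75), the gene of the Tail-short mouse, did not pass.

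Members that belong to paralogue pairs were looked at next; differences between the genes of a pair were not tested. Rps4l, a retrocopy that the annotation lists as a transcribed processed pseudogene, was the member called higher with the block. At E9.25+24h it had 38.3, 37.3, 43.0 and 43.8 CPM in con and 48.5, 47.1, 45.8 and 45.7 CPM in R2b, a log2 fold change of 0.20 ± 0.07 (FDR = 0.068; 0.020 with the block). All R2b pools were above all con pools. At E9.75+12h its log2 fold change was 0.31 ± 0.13 (FDR = 0.12). Its X-linked relative Rps4x had -0.15 ± 0.05 at E9.25+24h (FDR = 0.083; 0.011 with the block). Rps27l, a p53-responsive copy of Rps27, had -0.38 ± 0.17 at E9.75+12h (FDR = 0.13) and -0.17 ± 0.09 at E9.25+24h (FDR = 0.24; 0.012 with the block). Rpl3 was at -0.14 and -0.46 (FDR = 0.82 and 0.11; 0.021 with the block at E9.25+24h), Rpl39 at -0.22 and -0.05 (FDR = 0.44 and 0.51) and X-linked Rpl36a at -0.60 and -0.07 (FDR = 0.15 and 0.79), in the order E9.75+12h and E9.25+24h.

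**Figure D4:**
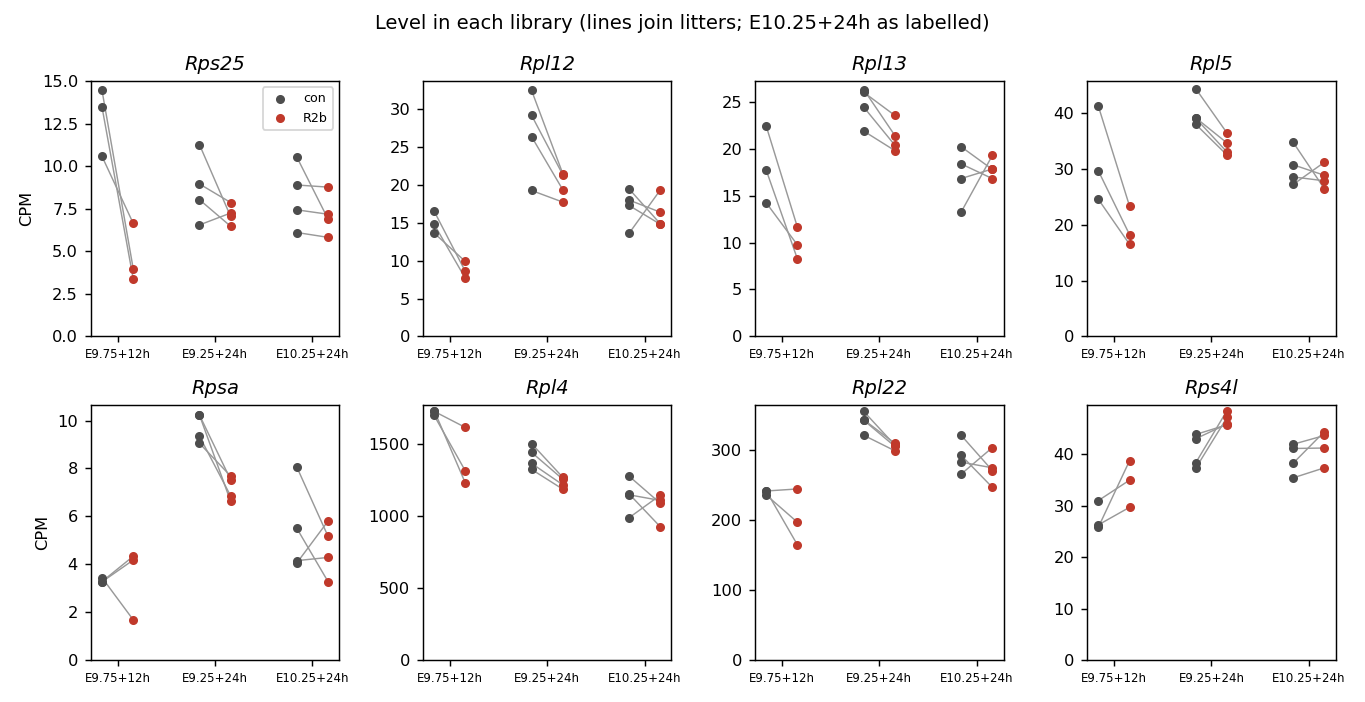
Level in CPM (vertical axes, each from 0) of 8 ribosomal protein genes in every library, with con and R2b pools of a litter joined. Rps25, Rpl12, Rpl13 and Rpl5 separate the groups at E9.75+12h, Rpsa, Rpl4 and Rpl22 separate them at E9.25+24h, and Rps4l is higher in R2b in every litter of these exposures.

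No member was called in the libraries as labelled at E10.25+24h, where edgeR called 0 of all 15203 genes (0%) and DESeq2 also called 0 members, and where no member had an unadjusted p under 0.05 in either direction (0.283% of all genes did lower and 0.868% higher). Of 75 members, 57 had a log2 fold change below 0 (76%, against 49.4% of all genes), with a median of -0.06. The litters went different ways: medians were 0.27, -0.23, 0.01 and -0.21 for litters 1 to 4. The transgene reads stood as labelled in litters 2 and 4, opposite to the labels in litter 1, and in both libraries of litter 3. In litters 2 and 4 alone the median was -0.23 and no member was called (0.0329% of all genes were). Without litter 1 it was -0.16, and with the block added Rps2 was the 1 of 75 members called (-0.46 ± 0.05, FDR = 0.020), where 4.04% of all genes were.

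The size of the effect was compared between exposures in one fit. No member differed between the 24 h exposure from E9.25 and the 12 h one, and neither did any of all 15688 genes (0%), although 11 had an unadjusted p under 0.05 (12.2% of all genes did). The lowest FDR was that of Rps25, 0.19, with a difference of 1.18 ± 0.32 in log2 fold change. None differed between both 24 h exposures either (0% of all genes), with 3 at an unadjusted p under 0.05 (8.57% of all genes) and the lowest FDR, 0.52, at Rpl17. DESeq2 also called 0 in both. Leaving out litter 2 of E9.75+12h gave 3 calls (Rps25, Rps15a and Rpl32) and leaving out litter 3 gave 3 others (Rpl35a, Rps2 and Rps18). Rpl35a, Rps2 and Rps18 were high in con litters 1 and 2 and R2b litter 3, a split that the genotype does not follow. The share of all genes called in these settings is not given here. A larger effect at 12 h than at 24 h was thus not established.

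The factors that build ribosomes had lower medians than the ribosomal proteins, a difference that was not tested. Of 57 ribosome biogenesis factors, 37 were called at E9.75+12h, all lower, where 9.78% of all genes were called lower. Their median log2 fold change was -0.45. Gnl3 (nucleostemin) went from 84.0 ± 4.29 CPM in con to 43.6 ± 6.76 CPM in R2b, -0.95 ± 0.12 (FDR = 9.0e-04). Gar1, of the box H/ACA particles that pseudouridylate ribosomal RNA, fell by 0.87 (FDR = 0.0011), and Nop58, of the box C/D methylation particles, by 0.86 (FDR = 0.0012). The block left 25 (6.13% of all genes were lower). Dropping litter 1 left 7, con litter 2 alone 23 and R2b litter 1 alone 18. These settings called 2.92%, 10.21% and 8.37% of all genes either way. In the 24 h exposure from E9.25, 12 were called, all lower (6.5% of all genes), with a median of -0.22. With the block 43 fell (20.1% of all genes), and DESeq2 called 27 (21.8% of all genes either way). Gar1 fell again, by 0.46 (FDR = 0.016), with Polr1c, shared by RNA polymerases I and III, at -0.22 (FDR = 0.0096) and Utp15, of the small-subunit processome, at -0.29 (FDR = 0.018). Without litter 1 or litter 2 those 12 were 0, where 2.15% and 3.06% of all genes were called. They were 1 to 7 without litter 3 or any of 5 single pools. None was called as labelled at E10.25+24h by edgeR or DESeq2, where the median was -0.08 and 0 had an unadjusted p under 0.05.

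Translation factors and other TOP mRNAs, a list of 34, had medians of -0.30 and -0.16 in the earlier exposures. After 12 h, 11 were called, all lower (median -0.30), and 9 with the block (9.78% and 6.13% of all genes were lower). Among the 11 were the elongation factor Eif5a at -0.64 (FDR = 0.0021), Eif2s2 of the initiator tRNA complex at -0.72 (FDR = 0.0051) and the cap-binding protein Eif4e at -0.64 (FDR = 0.0067). After 24 h from E9.25, 6 were called, all lower (median -0.16), and 25 were lower with the block (6.5% and 20.1% of all genes). Rack1, a scaffold on the small subunit, went from 1396 ± 50.8 to 1217 ± 23.0 CPM (-0.20 ± 0.04, FDR = 0.017). Of 77 mitochondrial ribosomal proteins, which form a separate ribosome, 12 were called after 12 h, all lower (median -0.26; 9.78% of all genes were lower), and 5 with the block (6.13% of all genes). After 24 h from E9.25, 3 of the 77 were called, all lower (median -0.10; 6.5% of all genes), and 25 with the block (20.1% of all genes). Each litter was dropped with or without the block, and each single pool without it. After 12 h this moved the counts between 0 and 21 (translation list) or 31 (mitochondrial list), where 1.8% to 30.5% of all genes were called. After 24 h from E9.25 either count moved between 0 and 23 (2.15% to 41.2% of all genes). Without litter 1 and without the block, both were 0 in both exposures (2.92% and 2.15% of all genes). Mrps22 fell in both, by 0.55 (FDR = 0.0062) and by 0.32 (FDR = 0.029). Neither list had a call as labelled at E10.25+24h, with medians of -0.08 and -0.06 and 0 members at an unadjusted p under 0.05.

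**Figure D5:**
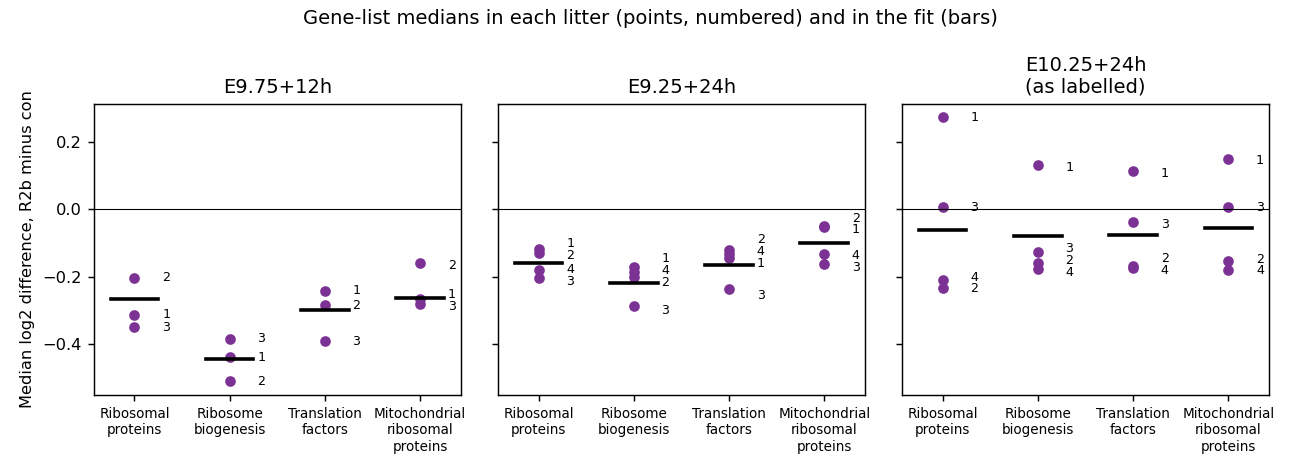
Median log2 difference of R2b minus con over each gene list (vertical axis), by litter (numbered points) and in the fit of the exposure (bars). Every litter in the left and middle panels lies below 0 for the 4 lists, with ribosome biogenesis lowest in both fits (-0.45 and -0.22), and litter 1 of E10.25+24h lies above 0 for all 4.

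Of 10 MYC-network genes, 1 was called lower and 2 higher at E9.75+12h, where 19.98% of all genes were called either way. At E9.25+24h 1 was lower and 1 higher, where 15.59% of all genes were called. The list as a whole moved little, with median log2 fold changes of 0.08 and -0.01 and 4 and 7 of 10 below 0. Mycn, the MYC protein of many embryonic epithelia, fell from 109 ± 5.76 CPM in con to 47.4 ± 11.1 CPM in R2b at E9.75+12h (log2 fold change -1.20 ± 0.15, FDR = 6.7e-04). It fell from 115 ± 15.7 to 59.6 ± 6.71 CPM at E9.25+24h (-0.95 ± 0.11, FDR = 0.0015). Mxd4, a repressor that competes for the partner Max, rose at both, by 0.80 (FDR = 9.3e-04) and by 0.54 (FDR = 0.026), and Mnt, another such repressor, rose at E9.75+12h by 0.51 (FDR = 0.040; 0.074 with the block). Myc itself did not pass at either (FDR = 0.45 and 0.99). Whether Mycn had a part in the levels of the ribosomal genes was not tested.

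Close relatives outside the naming rule gave mixed values. Rpl7l1, a nucleolar relative of Rpl7, fell at E9.75+12h by 0.37 (FDR = 0.037; 0.062 with the block) and had -0.19 at E9.25+24h (FDR = 0.083; 9.2e-04 with the block). Rpl22l1, the paralogue of Rpl22, had -0.48 (FDR = 0.11) and 0.07 (FDR = 0.58), and Rpl36al -0.10 (FDR = 0.76) and -0.16 (FDR = 0.20). Fau, which encodes a ribosomal protein fused to a ubiquitin-like protein, had 0.09 at E9.75+12h (FDR = 0.80) and did not pass at E9.25+24h either (FDR = 0.94). Rps3a1, the small-subunit protein outside the rule, had -0.22 at E9.75+12h (FDR = 0.54) and -0.09 at E9.25+24h (FDR = 0.25).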

How the data were processed

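Poly(A) RNA was sequenced from stranded libraries, per the labels' protocols. The authors deposited raw read counts per gene; they aligned with Novoalign 2.08.03 to mm10, per the submitters' processing notes, and the counter, annotation and filter are not given in the sources used here. Columns were joined to samples by the library number in the titles: 22 of 24 samples had a column, and 2 columns that named no sample were not used. Symbols, positions and transcripts came from GENCODE M21 (GRCm38) and start windows from RefSeq. The transcript of a gene was chosen as protein-coding, then principal isoform, then best support level, then longest. The members, gene lists and named genes were chosen with earlier results of these data known.

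R2b was compared with con within each exposure in edgeR 4.0.16 (R 4.3.3): filterByExpr, TMM scaling, glmQLFit and glmQLFTest over all genes, with Benjamini-Hochberg adjustment and a threshold of 0.05; DESeq2 1.42.0 was an alternative. CPM use TMM-scaled totals; litter differences use log2 CPM with a prior count of 2. No list was tested as a set, and no p is attached to a list. Scripts were tested on simulated data. Count pairs of the same group differed beyond sampling noise (chi-square per degree of freedom 5.48 to 44.2), so no library was a duplicate.

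Same-numbered pools come from the same female, per the labels, so the litter number was used as a block. The correlation of their deviations from group means over genes ran from 0.42 to 0.76 in the E9.25 exposure and from -0.11 to 0.39 in the E10.25 one. It was -0.12 to -0.26 in the E9.75 exposure, whose pairing rests on the labels alone. There, pools of different number correlated more: con litter 1 with R2b litter 3 (0.19), con 2 with R2b 1 (0.19) and con 3 with R2b 2 (0.30). Whether the litter numbers are crossed there was not tested. Named members were the 5 largest rises and falls called in each exposure, the stalk, 5S and disease-linked proteins, Rps6, Rpsa, Rps27a, Rpl38, Rpl36a, paralogue pairs and the 3 highest levels per kb; Rpl26, Rpl35a, Rps2, Rps18, Rpl34 and the members called only in an alternative were added after their values were seen. Alternatives varied the scaling, filter, block, fit, tool and the litters and libraries left out.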

Additional observations from a re-analysis of the deposited data

Results flagged for a closer look

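In 104 groups of 4 pools looked at (25 named members and the summed share, in each group of E9.25+24h and E10.25+24h), 8 had a single pool far from the other 3; chance alone gives about 1 in 20. At E9.25+24h these were Rps27l in con litter 3 (72.9 CPM, others 57.1 to 59.2), Rpl3 in R2b litter 2 (3.07 CPM, others 3.91 to 4.07), Rplp0 in R2b litter 4 (655 CPM, others 695 to 698) and Rps19 in R2b litter 1 (89.5 CPM, others 137 to 142). At E10.25+24h, by label, they were Rpl38 in con litter 2 (1.19 CPM, others 0.616 to 0.685), Rpl36a in R2b litter 4 (4.84 CPM, others 3.85 to 3.93), Rplp2 in R2b litter 4 (100.2 CPM, others 130 to 132) and Rps24 in R2b litter 3 (149 CPM, others 89.2 to 96.9).

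Rps16 moved opposite ways between exposures: R2b was below con in every litter of E9.75+12h (log2 fold change -2.01) and E9.25+24h (-0.56), and above it in every litter of E10.25+24h as labelled (0.55). It rested on 3 to 30 reads per library, and the differences between exposures did not pass the fit of all libraries.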

How the results depend on the processing

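The direction of the members' median was the same in every setting at E9.75+12h and E9.25+24h; counts of calls were not stable. One fit over every library gave 22 called ribosomal proteins after 12 h (21 lower) and 0 after 24 h from E9.25. The replicate block gave 5 and 34 there (33 of the 34 lower), and 43 biogenesis factors after 24 h from E9.25. It also changed calls in the translation list after 12 h, from 11 to 9, all lower (6.13% of all genes). Of the MYC-network genes, 3 were lower and 2 higher with it after 24 h from E9.25, against 1 and 1 without. With the block, 20.1% of all genes were lower there and 20.5% higher. DESeq2 gave 10 ribosomal proteins and 27 biogenesis factors in the E9.25 exposure (21.8% of all genes). Library totals without scaling gave 5 ribosomal proteins there (15.8% of all genes). Members with under 50% shared stretches, a setting chosen after seeing the data, had a median of -0.17 after 12 h.

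Each litter was dropped in turn, with and without the block, and each single pool without it. After 12 h these drops gave 0 to 27 called ribosomal proteins (medians -0.39 to -0.21) and 3 to 40 biogenesis factors. Of all genes, 1.8% to 30.5% were called across them. In the E9.25 exposure they gave 0 to 28 ribosomal proteins (medians -0.20 to -0.12) and 0 to 41 biogenesis factors (2.15% to 41.2% of all genes). In the E10.25 exposure, as labelled, they gave 0 to 1 of each (0% to 4.04% of all genes). There the members' median ran from -0.17 to 0.0080, turning positive without the library labelled con of litter 2 (0.0020) and, with the block, without litter 2 (1.28e-05) or litter 4 (0.0080). For the difference between the 12 h exposure and the E9.25 one, only whole litters were dropped, without the block. This gave 0 to 3 members, and the share of all genes is not given. The cause was not tested. Medians of all genes stayed within 0.1 of 0 under every scaling. With 3 or 4 litters and members at a few reads (Rps16), depth and litter number limit what could be called. Litters 2 and 4 of E10.25+24h alone, also chosen after seeing the data, gave 0 calls with both groups at 2 pools.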

Other observations

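A few members, picked out after their values were seen, split the libraries in steps that the genotype does not follow. At E9.75+12h Rpl26 had 20.2, 14.6 and 0.422 CPM in con litters 1 to 3 and 0.595, 0.274 and 31.0 CPM in R2b. Rpl35a had 58.4, 94.1 and 6.17 CPM in con and 2.42, 2.23 and 37.7 CPM in R2b. Rps2 had 58.8, 122 and 24.4 CPM in con and 10.15, 8.38 and 80.9 CPM in R2b. In all 3 genes, and in Rps18 and Rpl34, the same libraries were high: con litters 1 and 2 and R2b litter 3. None of the 5 passed the test there.

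At E9.25+24h Rpl26 followed the litter in both genotypes, with 2.30, 2.63, 62.7 and 26.5 CPM in con and 1.93, 1.32, 53.6 and 30.7 CPM in R2b. Litters 1 and 2 were low and litters 3 and 4 high whatever the genotype. At E10.25+24h it was low in both libraries of litter 2, at 1.82 and 1.50 CPM, and at 8.52 to 35.7 CPM in the others. The con and R2b pools of a litter number were thus alike at E9.25+24h and unlike at E9.75+12h. Whether this bears on the litter numbers, on inherited sequence differences or on read mapping was not tested.

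Con pools of E9.75+12h and E9.25+24h were both collected at E10.25, yet some members differed in level. Rplp1 was at 1021 ± 18.1 CPM in the first and 421 ± 38.2 CPM in the second, Rpl39 at 11.6 ± 1.70 and 68.8 ± 3.55 CPM, and Rps19 at 43.3 ± 5.75 and 140 ± 25.7 CPM. The library numbers in the titles begin with a different prefix in each exposure, and what the prefix stands for is not given there, so the length of exposure and whatever it marks cannot be told apart.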
